A study of Mus musculus with 12 samples.

Results

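The 300 genes described here are the ribosomal protein pseudogenes of the mouse brainstem count table, that is, every gene whose symbol starts with Rpl or Rps and ends in -ps with or without a number. They make up 300 of 55418 genes in the table and were chosen by name alone, with no measured value used. Each was set beside its parent, the functional gene whose symbol stands before -ps. The 300 symbols name 62 parents, 61 of which were counted in the same table (Rpl48, the parent symbol of Rpl48-ps1, was not).

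Ribosomal protein genes encode the protein part of the cytosolic ribosome, and their mRNAs are among the most abundant of any cell. A processed pseudogene arises when a spliced mRNA is copied back into DNA and inserted elsewhere in the genome, so that it lacks the introns and usually the promoter of its parent, and ribosomal protein mRNAs have left many such copies in mammalian genomes. A recently made copy differs from the parent mRNA at few bases, so a short sequencing read can match both places.

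CFW mice, an outbred Swiss Webster stock, were injected under the skin with 15 mg/kg morphine or with saline, 2 times daily from postnatal day 1 to postnatal day 14, to model neonatal opioid withdrawal. The brainstem (medulla and pons) was collected on postnatal day 15, 16 h after the last injection, and the 12 libraries were those of 3 mice for each combination of treatment (saline or morphine) and sex. Libraries were made from poly-A selected RNA and read as single 100-base reads on 1 lane. Mice are named here by treatment, sex and the replicate number in the labels, and the dam of each mouse, a covariate of the study, was not used here.

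The libraries held 27850565 to 48097947 gene counts (median 33214511). Transcripts of 2 genes of glycine transmission, Slc6a5 and Glra1, summed to 531 to 699.8 counts per 1000000 counts of the library (CPM). A set of 9 Hox genes of the thoracic and lumbar spinal cord, a tissue named in the deposited extraction text, summed to 0.775 to 7.75 CPM. Of these 9, 8 were under 1 CPM on average. Morphine male 6 went against its label: Xist, which is transcribed from the inactive X chromosome of females, was at 379.9 CPM there, against at most 2.71 CPM in the other 5 males and 547 to 970.5 CPM in the 6 females, and 4 Y-linked genes summed to 53.2 CPM against 232 to 394 CPM in the other 5 males and at most 1.37 CPM in females. The tests that used this library were therefore also run without it. Saline males 1 and 2 stood apart in the markers of myelinating cells, with 4 oligodendrocyte genes at 49229.9 and 51309.6 CPM against 28363 to 41702 CPM in the other libraries, and they also held the most counts of the 61 parent genes (7467 and 7129 CPM against 4348 to 6525 CPM). Other tissue markers also set libraries apart: 4 skeletal muscle genes summed to 26.8 CPM in saline male 2 against at most 2.62 CPM elsewhere, 4 red blood cell genes to 427 CPM in saline male 1 against at most 238 CPM, and 4 choroid plexus genes to 8.19 to 814 CPM, highest in morphine males 4 and 5.

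The sequences below show how close the highest pseudogenes were to their parents. Each pair covers 120 bases of the parent's coding sequence and the same stretch of the pseudogene, 5′ to 3′ along the transcript, with the bases that differ in capitals; they were taken from GENCODE transcripts on GRCm38. The first 3 pairs are the members with the most counts, and Rps16-ps2 is the most counted member with no difference from its parent at all.
Rpl3-ps1 (chrX:13203297-13203416, plus strand): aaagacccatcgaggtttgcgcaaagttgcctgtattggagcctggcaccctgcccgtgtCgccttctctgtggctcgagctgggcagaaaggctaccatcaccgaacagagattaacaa
Rpl3: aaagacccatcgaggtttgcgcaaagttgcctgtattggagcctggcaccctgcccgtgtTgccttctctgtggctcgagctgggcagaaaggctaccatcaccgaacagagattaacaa
Rps26-ps1 (chr8:107439234-107439353, minus strand): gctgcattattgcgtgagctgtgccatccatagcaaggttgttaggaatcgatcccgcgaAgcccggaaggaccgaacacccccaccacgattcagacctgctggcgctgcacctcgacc
Rps26: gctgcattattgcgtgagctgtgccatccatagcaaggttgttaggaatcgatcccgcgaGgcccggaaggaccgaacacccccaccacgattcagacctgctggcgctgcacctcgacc
Rps24-ps3 (chrX:79195313-79195432, plus strand): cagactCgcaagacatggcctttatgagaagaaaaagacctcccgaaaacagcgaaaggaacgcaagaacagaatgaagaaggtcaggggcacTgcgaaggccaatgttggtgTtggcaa
Rps24: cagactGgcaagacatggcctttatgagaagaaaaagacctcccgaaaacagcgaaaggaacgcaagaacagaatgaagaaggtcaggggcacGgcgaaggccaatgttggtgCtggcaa
Rps16-ps2 and Rps16 (chr5:129128398-129128517, minus strand): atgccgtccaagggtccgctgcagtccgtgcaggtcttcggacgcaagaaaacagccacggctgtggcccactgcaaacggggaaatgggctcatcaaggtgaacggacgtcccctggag

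Over its whole length of 1210 bases, Rpl3-ps1 differed from the Rpl3 transcript at 2 bases, C57A and T786C, where the parent's base comes first, then the position counted from 1 at the A of the parent's start codon, then the pseudogene's base. Neither difference changed an amino acid, and the 1209-base reading frame was open. Rps26-ps1 differed at 4 of 429 aligned bases, of which C30T and G270A lay in the coding part, again without a change of an amino acid. Rps24-ps3 differed at 4 of 402 bases, all in the coding part (C207T, G273C, G360T and C380T), and 1 codon encoded another amino acid. Rps16-ps2 was identical to Rps16 over all 441 bases.

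Most of the 300 pseudogenes had few counts or none. Over the 12 libraries together, 116 (38.7%) had 0 counts, 120 had 1 to 11, 58 had 12 to 119, and 6 had 120 or more. In a single library, 69 to 88 members had at least 1 count. A count of 0 over 407666967 counts allows a level of up to 0.00736 CPM (3 counts), and this limit covers counting error only. The share at 0 was 65.4% among the 1253 other genes of the table whose symbols end in -ps, 32.4% among all 55418 genes, and none of the 61 parents was at 0.

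The 300 members summed to 17083 counts, against 2294672 for their 61 parents. Rpl3-ps1 held 51.8% of the member counts, Rps26-ps1 20.9% and Rps24-ps3 4.85%, so that these 3 held 77.5% and the other 297 members 3842 counts. The summed level of the 300 ranged from 16.9 CPM in saline male 3 to 83.4 CPM in saline male 1. Without the 3 leading members the sum ranged less, 1.77-fold against 4.93-fold for the 300 and 1.72-fold for the parents. It was still highest in saline males 1 and 2 (12.2 and 11 CPM) and lowest in saline female 6 and saline male 3 (6.91 and 7.05 CPM).

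**Figure D1:**
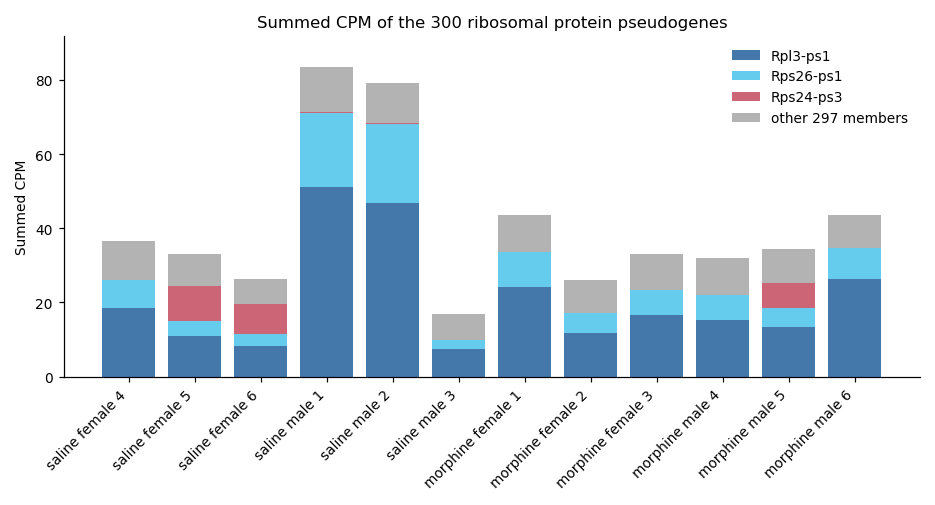
Stacked bars give the summed CPM of the 300 pseudogenes in each of the 12 libraries, split into Rpl3-ps1, Rps26-ps1, Rps24-ps3 and the other 297 members. Saline males 1 and 2 reach 83.4 and 79.2 CPM and saline male 3 only 16.9 CPM, while the grey part of the other 297 members stays between 6.91 and 12.2 CPM.

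All 300 symbols were found in the annotation used here, GENCODE on GRCm38. It types 287 members as processed pseudogenes, 7 as transcribed processed pseudogenes and 6 as protein-coding, and in 293 the exons filled the gene's span without an intron. All 7 transcribed processed pseudogenes had counts, among them Rps26-ps1 and Rps2-ps10, and 2 of the 6 protein-coding members did. There were 189 pseudogenes of large-subunit (Rpl) and 111 of small-subunit (Rps) genes, with counts in 60.3% and 63.1% of them. On the X chromosome lay 35 members, of which 13 (37.1%) had counts, against 171 of 265 (64.5%) on the autosomes, although Rpl3-ps1 and Rps24-ps3 are both X-linked. Among 207 members that overlap no other gene, 119 (57.5%) had counts. The share was 72.7% among 33 that lie within a gene on their own strand and 68.8% among 64 that overlap a gene on the opposite strand, and whether the authors' counting used the strand is not given in the sources used here.

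Members close to their parent in sequence were counted more often. The 294 members with an alignment of at least 50 columns to the parent transcript had a median identity of 96.2% (68.1 to 100.0%). A count was seen in 28.3% of the 60 members under 90% identity, 51.5% of the 66 from 90% to under 95%, 61.8% of the 68 from 95% to under 98%, and 87% of the 100 at 98% or above. The median identity was 91.7% for members at 0 counts, 97.1% at 1 to 11 counts, 98.5% at 12 to 119 and 99% at 120 or more. The parents of members with and without counts were at like levels, with a median of 76.6 CPM and 71.9 CPM. These shares describe members that differ in age, length and surroundings, and they were not tested.

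**Figure D2:**
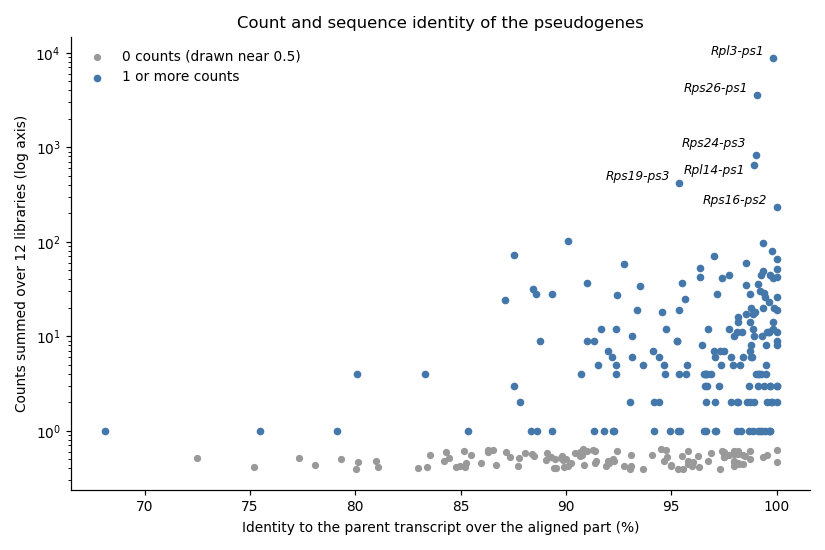
Each point is 1 of the 294 aligned pseudogenes, placed by its percent identity to the parent transcript (x axis) and its counts summed over 12 libraries (y axis, log scale), with members at 0 counts drawn in grey near 0.5. Grey points spread from 72.5% to 100.0% identity, while the 6 named members with the most counts all lie at 95.4% or above.

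Reads of 100 bases cannot always be placed, so each member was cut into all windows of 100 bases and these were searched among the other GENCODE transcripts. In 31 members every window was also found elsewhere, and 17 of these had counts, 519 in all. In 119 members no window was found elsewhere, and 49 of these had counts, 647 in all, led by Rpl26-ps6 with 102. The remaining 150 members held 15917 counts. For Rpl3-ps1, 1053 of 1111 windows were found elsewhere, 953 of them in Rpl3, and for Rps26-ps1 203 of 350. How the authors' counting treated reads with several matches is not given in the sources used here, so the split of reads between a member and its parent is uncertain for these genes.

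An open reading frame over the parent's whole coding part, without gaps, was kept by 120 of the 294 aligned members (40.8%). The share was 26.3% of the 114 aligned members at 0 counts and 50.0% of the 180 with counts. Rpl3-ps1, Rps26-ps1, Rps24-ps3 and Rps16-ps2 were open, while the alignments of Rpl14-ps1, Rps19-ps3 and Rpl26-ps6 held gaps or stopped short of the coding ends.

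Rpl3-ps1 (chrX:13202571-13203780, plus strand, in no other gene) is a copy of Rpl3, which encodes a large-subunit protein next to the site of peptide bond formation. It was at 18.4, 10.9 and 8.32 CPM in saline females 4, 5 and 6, at 51.2, 46.8 and 7.35 CPM in saline males 1, 2 and 3, at 24.2, 11.8 and 16.6 CPM in morphine females 1, 2 and 3, and at 15.3, 13.4 and 26.2 CPM in morphine males 4, 5 and 6. Saline males held both ends of the range, with 1 and 2 far above every other library and 3 below all of them. The highest library was 6.96 times the lowest, whereas Rpl3 itself ran only from 199 to 286 CPM, 1.44 times. Per 1000 Rpl3 counts, Rpl3-ps1 counts ranged from 37 in saline male 3 to 187 in saline male 1. Per kilobase of annotated exon, its summed count was 24.1% of that of Rpl3.

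Rps26-ps1 (chr8:107439131-107439579, minus strand) lies within Wwp2 on the opposite strand and is typed as a transcribed processed pseudogene. Its parent Rps26 encodes a small-subunit protein at the exit of the mRNA channel. It was at 7.63, 4.13 and 3.2 CPM in saline females 4, 5 and 6, at 19.8, 21.4 and 2.42 CPM in saline males 1, 2 and 3, at 9.41, 5.39 and 6.68 CPM in morphine females 1, 2 and 3, and at 6.63, 5.05 and 8.39 CPM in morphine males 4, 5 and 6. Saline males 1 and 2 were again the highest libraries, in the reverse order, and saline male 3 was again the lowest. The order of the 12 libraries differed from that of Rpl3-ps1 by at most 1 place in each. Rps26-ps1 counts per 1000 Rps26 counts ranged from 138 in saline male 3 to 464 in saline male 2, the highest ratio to a parent of any leading member. Per kilobase of annotated exon the pseudogene was at 104% of Rps26, whose annotated exons are longer (1544 against 449 bases).

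Rps24-ps3 (chrX:79195047-79195448, plus strand, in no other gene) is a copy of Rps24, which encodes a small-subunit protein. It was at 9.42 CPM in saline female 5, 7.98 CPM in saline female 6 and 6.75 CPM in morphine male 5, from 206 to 310 counts each. In the other 9 libraries it was at 0.0576 to 0.209 CPM, from 2 to 7 counts each. No library lay between, and the lowest of the 3 was 32.4 times the highest of the 9. Rps24 was at 209 to 215 CPM in the 3 libraries and at 199 to 306 CPM in the 9. The 3 libraries were of both sexes and both treatments, and neither Rpl3-ps1 nor Rps26-ps1 was among its 7 highest values in any of them.

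**Figure D3:**
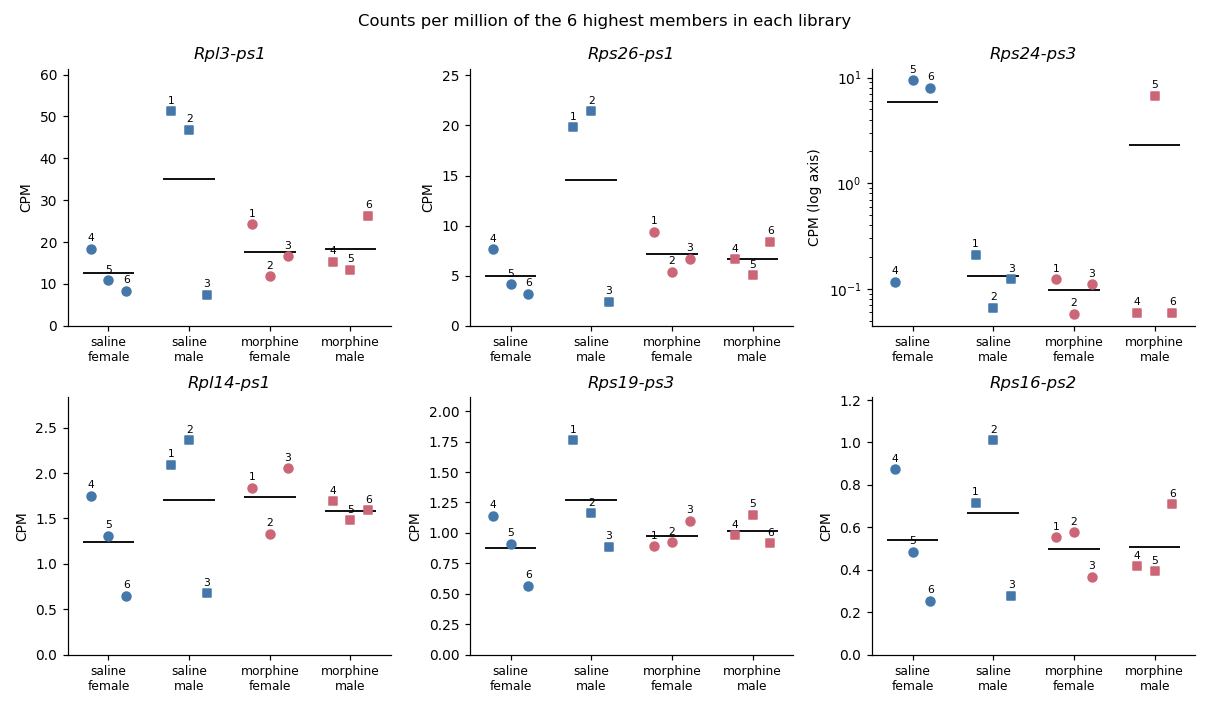
Each panel plots the CPM of 1 of the 6 highest members in the 12 libraries, by treatment and sex, with replicate numbers above the points (circles females, squares males) and a line at each group's mean; the Rps24-ps3 axis is logarithmic. Saline males 1 and 2 top the Rpl3-ps1 and Rps26-ps1 panels, with saline male 3 at the bottom, and Rps24-ps3 splits into 3 libraries at 6.75 to 9.42 CPM and 9 at 0.0576 to 0.209 CPM.

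Rpl14-ps1 (chr7:45324965-45325617, plus strand), within Trpm4 on the opposite strand, is a copy of the large-subunit gene Rpl14 with 4 mismatches and 3 gap positions. It was at 1.75, 1.31 and 0.651 CPM in saline females 4, 5 and 6, at 2.09, 2.36 and 0.674 CPM in saline males 1, 2 and 3, at 1.84, 1.33 and 2.05 CPM in morphine females 1, 2 and 3, and at 1.69, 1.48 and 1.59 CPM in morphine males 4, 5 and 6. Morphine libraries lay within the range of the saline ones. Its ratio to Rpl14 was steadier, at 5.22 to 11.5 per 1000 Rpl14 counts with saline and 9.68 to 12.2 with morphine.

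Rps19-ps3 (chr4:147821777-147822202, minus strand) copies Rps19, whose protein is needed to mature the small subunit and is mutated in Diamond-Blackfan anemia. It differed from Rps19 at 14 bases and 6 gap positions, and only 26 of its 327 windows were found elsewhere. It was at 0.566 to 1.76 CPM with saline, highest in saline male 1 and lowest in saline female 6, and the morphine libraries lay within that range at 0.891 to 1.15 CPM. Rps16-ps2 (chr5:129128077-129128517, minus strand, within Adgrd1 on the opposite strand) was at 0.255 to 1.01 CPM with saline and 0.367 to 0.709 CPM with morphine, highest in saline male 2. Since each of its 342 windows is also in Rps16, reads on it cannot be told by sequence from reads of Rps16.

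The next members by level had 1 to 23 counts a library. Rpl26-ps6, a diverged copy of the large-subunit gene Rpl26 with 42 mismatches and no window found elsewhere, was at 0.123 to 0.514 CPM. Rps2-ps10, a copy of the small-subunit gene Rps2, was at 0.0613 to 0.507 CPM, with its highest values, 0.507 and 0.503 CPM, in saline males 1 and 2. Rps27a-ps2, a copy of the gene for a fusion of ubiquitin and a small-subunit protein, was at 0.0984 to 0.346 CPM. Rps7-ps2 was at 0.0307 to 0.505 CPM, and its 1347-base transcript aligned to Rps7 over only 13 columns, while its best match among all parents, Rpl3, was also weak (alignment score 33), so that its name could not be borne out by its sequence. Of the 28 members with at least 36 counts, saline males 1 and 2 were the highest library for 4 and 5, and saline male 3 and saline female 6 were the lowest for 8 and 6.

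Names and sequences disagreed in other members too. Rpl13-ps1 aligned to Rpl13 only in the reverse orientation, and Rpl17-ps11 aligned to no parent over more than a short stretch. They had 11 and 0 counts over the 12 libraries.

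The largest families were those of Rpl31, a large-subunit gene, and Rps12, a small-subunit gene, with 24 pseudogenes each. In the Rpl31 family 10 of 24 members were at 0, and the 24 together had 115 counts, 4.27 per 1000 Rpl31 counts. Rpl31-ps15 led it with 37 counts, 12 in saline female 4, 6 in saline female 6, 7 in saline male 1, 6 in saline male 3, 5 in morphine male 4, 1 in morphine male 6 and 0 in the other 6 libraries. In the Rps12 family 17 of 24 members were at 0, and the 24 had 55 counts, 28 of them on Rps12-ps26. The families with the most counts against their parents were small, those of Rps26 (1 member, 302 per 1000 parent counts), Rpl3 (2 members, 91.8), and Rps10 (4 members, 83.3, with Rps10 itself at only 624 counts in all).

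**Figure D4:**
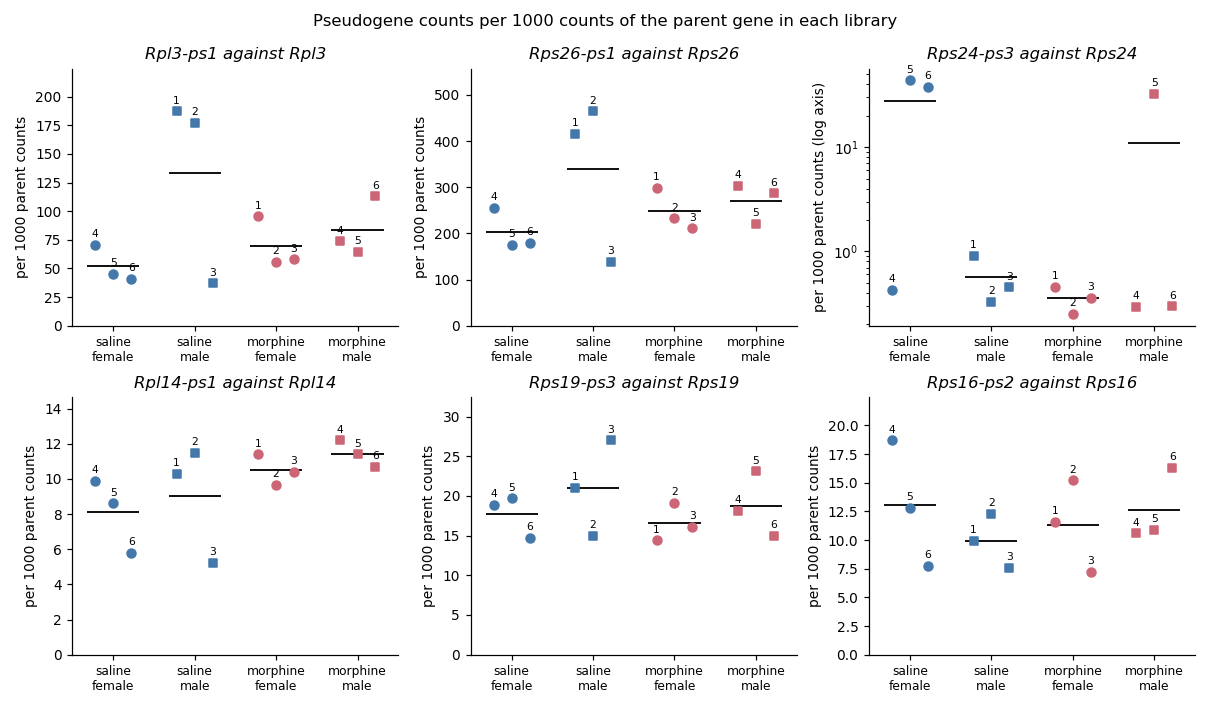
Each panel plots counts of 1 pseudogene per 1000 counts of its parent gene in the 12 libraries, by treatment and sex, with replicate numbers above the points and a line at each group's mean; the Rps24-ps3 axis is logarithmic. Rpl3-ps1 runs from 37 to 187 and Rps26-ps1 from 138 to 464, both highest in saline males 1 and 2, while Rpl14-ps1 stays between 5.22 and 12.2.

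Whether morphine changed any member was tested with edgeR's quasi-likelihood test on the whole table. A gene was called where p was under 0.05 before adjustment and the log2 fold change was above 0.26 in size, which are the thresholds of the study. In bulk tissue, fewer cells of a type and less RNA per cell cannot be told apart.

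With both sexes together, and sex as a covariate, 8 members had enough counts to be tested and 0 were called, against 1.19% of all 18608 genes (221 genes, 246 at an unadjusted p under 0.05, and 0 after Benjamini-Hochberg adjustment). Of the 8 members 3 had a positive and 5 a negative log2 fold change, with a median of -0.15 against -0.02 over all genes. With 1 library left out, the median of the 8 or 9 members then tested ranged from -0.41 (without saline male 3) to 0.05 (without saline male 1). Rpl3-ps1 was at 23.8 ± 19.9 CPM with saline and 17.9 ± 5.92 CPM with morphine (SD, n = 6), a log2 fold change of -0.22 (SE 0.44), and Rps26-ps1 at 9.77 ± 8.6 and 6.92 ± 1.69 CPM, a log2 fold change of -0.30 (SE 0.47). Both differences were within the spread of the saline libraries. With the offset of each member set to its parent's count, so that the ratio of pseudogene to parent was tested, 0 of 8 members were called. The 8 included Rps7-ps2, whose named parent its sequence did not bear out. Other genes kept their usual scaling in this fit, so its 1.19% of genes called is no rate for ratios. Against the parent, the log2 change was -0.13 (SE 0.36) for Rpl3-ps1, -0.04 (SE 0.26) for Rps26-ps1 and 0.34 (SE 0.20) for Rpl14-ps1. Without morphine male 6, 0 of 9 members were called in either fit, with Rpl3-ps1 at -0.27 and Rps26-ps1 at -0.26, and at -0.18 and -0.02 against the parent. The summed member counts per 1000 summed parent counts were 7.43 ± 3.05 with saline and 6.57 ± 1.17 with morphine (SD, n = 6), with saline males 1 and 2 at 11.2 and 11.1 and saline male 3 at 3.67.

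In females, 5 members were tested and 0 called, against 1.81% of 18109 genes (328 genes, 343 at an unadjusted p under 0.05, 0 after adjustment). The median log2 fold change of the 5 was 0.48, against -0.01 over all genes, and that of the 61 parents was 0.20. Rpl3-ps1 was at 12.6 ± 5.25 CPM with saline and 17.5 ± 6.28 CPM with morphine (SD, n = 3), a log2 fold change of 0.48 (SE 0.30). Rps26-ps1 was at 4.99 ± 2.34 and 7.16 ± 2.05 CPM, a log2 fold change of 0.52 (SE 0.31), and Rpl14-ps1 had one of 0.49 (SE 0.36). For each of the 3 the groups overlapped. Single libraries moved these values: Rpl3-ps1 was at 0.17 without morphine female 1 and 0.26 without saline female 6, but at 0.85 without saline female 4, the highest saline female for these 3 members, and Rps26-ps1 was at 0.27, 0.29 and 0.95. Both were called in the fit without saline female 4, which called 1482 of 18631 genes, and Rpl3-ps1 also without morphine female 2 (0.70, with 690 of 18502 genes called). Rps24-ps3 was not tested in females with all 6 libraries. It was called without saline female 4 (-6.47), the saline female where it was low, at 0.117 CPM. Leaving out morphine female 1 (-6.12, with 208 of 18623 genes called), 2 (-5.61) or 3 (-5.99, with 285 of 18722) also called it. In these fits it had enough counts to be tested only through saline females 5 and 6, with 310 and 282 counts. The other females had 2 to 4 counts, so these calls are no separate test of morphine. With 1 library left out, the median of the 6 to 8 members then tested ranged from 0.07 without morphine female 3 to 0.43 without saline female 4.

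In males, 7 members were tested and 0 called, against 2.99% of 18166 genes (543 genes, 543 at an unadjusted p under 0.05, 0 after adjustment). The median log2 fold change of the 7 was -0.41, against -0.06 over all genes, and that of the 61 parents was -0.34. With libraries scaled by total counts the median of all genes moved to 0.06 and that of the members to -0.29. A change of scaling shifts all genes nearly alike, so the gap of 0.35 was bound to stay and is no separate test. Without saline male 2 the median of the members was -0.08, without saline male 1 it was -0.12, and without saline male 3 it was -0.61, each over 8 members tested. Rpl3-ps1 was at 35.1 ± 24.1 CPM with saline and 18.3 ± 6.9 CPM with morphine (SD, n = 3), a log2 fold change of -0.94 (SE 0.65), and Rps26-ps1 at 14.5 ± 10.5 and 6.69 ± 1.67 CPM, a log2 fold change of -1.12 (SE 0.69). Saline male 3 lay below every morphine male, while saline males 1 and 2 lay above all of them, and each of the 3 moved the values. Rpl3-ps1 was at -0.56 without saline male 1 and -0.69 without saline male 2, and Rps26-ps1 at -0.83 and -0.74, none of them called. Without saline male 3, edgeR gave Rpl3-ps1 -1.38 (adjusted p = 0.0161) and Rps26-ps1 -1.58 (adjusted p = 0.00958) in a fit that called 5341 of 18652 genes. Without morphine male 6, whose label is in doubt, the values were -1.30 and -1.32 and 0 members were called.

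**Figure D5:**
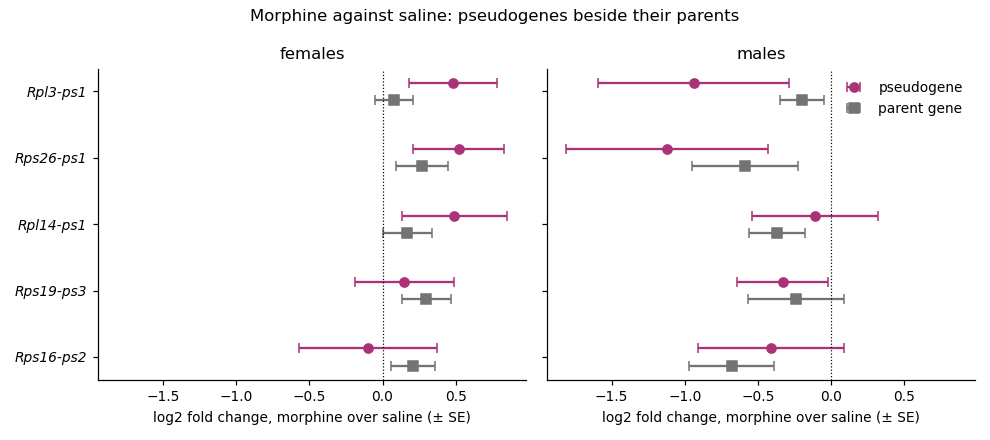
Points give the log2 fold change of morphine over saline, with bars of 1 SE, for the 5 members tested in both sexes (circles) and their parent genes (squares), from edgeR's quasi-likelihood fit in females (left) and males (right). Rpl3-ps1 and Rps26-ps1 lie at 0.48 and 0.52 in females and at -0.94 and -1.12 in males, with SEs of 0.30 and 0.31 in females and 0.65 and 0.69 in males.

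The difference between the sexes was tested as the interaction of treatment and sex. Of 9 members tested 1 was called, Rps24-ps3, against 2.94% of 19027 genes (559 genes, 559 at an unadjusted p under 0.05, 0 after adjustment). Its change in males minus its change in females was 10.02 on the log2 scale (SE 2.51), with an adjusted p of 0.985 in edgeR. This value rests on the 3 high libraries, saline females 5 and 6 and morphine male 5. Only through them did the member have enough counts to be tested. Without morphine male 5 the value was 4.84 and not called. The interaction was -1.40 (SE 0.79) for Rpl3-ps1 and -1.62 (SE 0.83) for Rps26-ps1, neither of them called, and both were called without saline male 3 (-1.90 and -2.14), in a fit that called 4695 of 19472 genes. Without saline female 4 Rps26-ps1 alone of the pair was called (-2.08, with 952 of 19481 genes called). Without morphine male 6 the values were -1.75 and -1.82, neither of them called.

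With the sexes together 0 of the 61 parent genes were called, and 19 had a positive and 42 a negative log2 fold change. It was positive for 59 of 61 in females, where 2 were called higher, against 168 of 18109 genes called higher (1.81% called in either direction). It was negative for 60 of 61 in males, where 6 were called lower. Of 18166 genes there, 194 were called lower and 349 higher (2.99% in either direction). With total-count scaling 51 of 61 were negative in males and 2 were called lower, against 70 of 18166 genes called lower (807 in either direction). In the interaction all 61 were negative and 12 were called lower, against 253 of 19027 genes called lower (2.94% called in either direction). With total-count scaling 57 were negative and 7 were called lower, against 132 of 19027 genes called lower (701 in either direction). These counts hinged on single libraries. In females 0 to 30 parents were called. There were 30 without saline female 4, where 1482 of 18631 genes were called. There were 0 without saline female 5 or 6 or morphine female 1 or 3, where 208 to 285 of 18485 to 18722 genes were called. In males 0 to 39 were called. There were 39 without saline male 3, where 5341 of 18652 genes were called. There were 0 without morphine male 5 (300 of 18621 genes called) and 2 without morphine male 6 (462 of 18697). In the interaction 3 to 40 were called. There were 40 without saline male 3, where 4695 of 19472 genes were called, and 12 without morphine male 6 (663 of 19529). There were 3 without saline male 1, saline female 6, morphine female 3 or morphine male 5, where 290 to 363 of 19424 to 19570 genes were called. Among the parents of the leading members, Rpl3 had log2 fold changes of 0.08 (SE 0.13) in females and -0.20 (SE 0.15) in males, and Rps26 0.27 (SE 0.18) and -0.59 (SE 0.36), each of them smaller in size than that of the pseudogene. The ratio of pseudogene to parent was not called with the sexes together and was not tested within a sex. Saline males 1 and 2, which set the saline level of Rpl3-ps1 and Rps26-ps1 in males, were also the libraries with the most oligodendrocyte transcripts and parent counts given above, with the red blood cell and skeletal muscle markers each highest in 1 of them, and the part of these in the result was not tested.

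Only 5 to 9 of the 300 members could be tested in any 1 comparison with the usual filter on low counts. The fits were therefore also run on every gene with a count. With both sexes together 2 of 184 members were called against 2.01% of genes: Rpl9-ps8, at -1.04 on the log2 scale, and Rpl31-ps15, at -2.24. In females 4 of 155 were called against 3.15% of genes: Rps24-ps3, Rpl31-ps15, Rpl3-ps1 and Rps26-ps1. In males 2 of 157 were called against 2.83% of genes, Rps24-ps3 and Rpl9-ps8. In the interaction 6 of 184 were called against 4.44% of genes: these 4 of the females' comparison, Rps25-ps1 with 10 counts in all and Rps2-ps6 with 8 counts in all. In each comparison the share of members called was below that of all genes, and Rpl31-ps15, Rps25-ps1 and Rps2-ps6 are named here after their values were seen. Only Rps24-ps3 passed adjustment in edgeR without the filter, in females (log2 fold change -5.89) and in the interaction (10.00), although its saline females ranged from 0.117 to 9.42 CPM.

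By ranges alone, no member separated the 6 saline from the 6 morphine libraries, which 0.102% of the 26344 genes with at least 12 counts did. Of the 64 members with at least 12 counts, 1 was lower with morphine without overlap in both sexes, against 0.137% of those genes, and 0 were higher, against 0.121%. The 1 was Rpl9-ps8 (chr3:144625403-144625964, minus strand), a diverged copy of the large-subunit gene Rpl9 at 87.5% identity with no window found elsewhere. It had 9, 7 and 9 counts in saline females 4, 5 and 6 and 4, 6 and 5 in morphine females 1, 2 and 3. In males it had 4, 10 and 11 counts with saline (1, 2 and 3) and 3, 3 and 1 with morphine (4, 5 and 6). These were 0.234 ± 0.0717 CPM with saline and 0.116 ± 0.0572 CPM with morphine (SD, n = 6), from 72 counts in all, and Rpl9 was at 235 ± 21.1 and 235 ± 38.4 CPM.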

How the data were processed

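RNA-seq of 12 brainstem libraries was analysed from the deposited table of counts per gene. Per the labels and the study's methods, the authors made these counts with Trimmomatic (quality trimming), STAR (alignment to mm10) and featureCounts of the Subread package (reads over Ensembl exons); versions, the strand setting and the treatment of reads with several matches are not given in the sources used here. Total counts of 27850565 to 48097947 per library set the precision, and limits on a count of 0 cover counting error only.

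Libraries were scaled by TMM and CPM computed from the scaled totals. Genes were tested on the whole table with the quasi-likelihood test of edgeR 4.0.16 (R 4.3.3) after filterByExpr: all 12 libraries with sex as covariate, each sex alone, the interaction, and a fit whose offset for each member was the log of its parent's count plus 0.5. The study also used dam as a covariate, which no label gives. P-values were adjusted over all genes tested. Nothing in the labels ties same-numbered mice together. Alternatives were edgeR's exactTest, DESeq2 1.42.0, other scalings and filters, and leaving out each library. The code was tested on simulated data. The 300 members and their positions were matched to GENCODE by symbol, and each was aligned locally to its parent's coding transcripts with Biopython 1.88.

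Members named with values were the 10 with the highest mean CPM, those called in any fit, those without overlap between treatments, the 5 with a mean of at least 20 counts and the widest ratio of highest to lowest library, any with more counts than its parent (0 were found), and the families with the most members. The members and lists were chosen with earlier results of these data known. A marker-gene sum and 1 alignment are not reported here.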

Additional observations from a re-analysis of the deposited data

Results flagged for a closer look

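Rps24-ps3 was at 6.75 CPM in morphine male 5, against 0.0576 to 0.123 CPM in the other 5 morphine libraries, a gap of 0.99 of the range of the group. Morphine male 5 was the 1 library apart among 22 groups of 6 looked at over 11 members. These members were chosen by their values, Rps24-ps3 partly for its wide range between libraries, so no chance rate can be set beside this. In the saline group 2 libraries, saline females 5 and 6, were as high, so neither stood apart alone.

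In edgeR's interaction test, Rps24-ps3 had a change in males minus change in females of 10.02 on the log2 scale (SE 2.51). It did not pass adjustment (adjusted p = 0.985). The value comes from 2 of 3 saline females and 1 of 3 morphine males being high. Only through these libraries did the member pass the filter on low counts. The value was 10.59 without morphine male 6 and 4.84 without morphine male 5.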

How the results depend on the processing

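Counts of members called changed with the filter on low counts. Without it, 2 of 184 members were called with the sexes combined, 4 of 155 in females, 2 of 157 in males and 6 of 184 for the interaction. The shares of all genes called there were 2.01%, 3.15%, 2.83% and 4.44%. The median of the members in females fell to 0.10. With at least 10 counts in every library, or with adjusted p under 0.05 as the call, the interaction called 0. Leaving out 1 library gave 0 to 1 members called with the sexes combined, 0 to 3 in females and 0 to 2 in males. It gave 0 to 4 for the interaction and 0 to 0 against the parent. Without saline male 3 the calls were 1 of 9 members combined (458 of 18911 genes called) and 2 of 8 in males (5341 of 18652). For the interaction they were 4 of 10 without that library (4695 of 19472). Without saline female 4 they were 3 of 7 in females (1482 of 18631). The medians ranged from 0.07 to 0.43 in females, -0.61 to -0.08 in males and -0.41 to 0.05 combined. The libraries that moved the counts of members called most were saline female 4 and saline male 3, and the cause was not tested. Across genes, saline male 3 was also far from saline males 1 and 2. The chi-square per degree of freedom between their counts was 198 and 257, against 12.5 to 45.2 for the other pairs within a group. The summed ratio to the parents, 7.00 per 1000 as the mean of 12 libraries, was 3.51 without Rpl3-ps1. With the replicate number as a replicate block, 0 members and 204 genes were called with the sexes combined (221 without it), and Rps7-ps2 turned from 0.04 to -0.04. Same-numbered libraries did not vary together (correlations of -0.34 to 0.18). The block could be fitted only with the sexes combined, where the median was -0.06 over the 11 members then tested (-0.15 over 8 without it), and Rps26-ps1 moved from -0.30 to -0.06. Scaling by total counts turned Rpl14-ps1 in males from -0.11 to 0.01 and moved the split of called genes from 113 higher and 108 lower to 181 and 68 with the sexes combined, from 349 and 194 to 737 and 70 in males, and from 306 and 253 to 569 and 132 for the interaction. Of 174 log2 fold changes of members under the other settings, 168 kept their direction and call, 4 became called and 2 reversed.

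Log2 fold changes of members that turned sign when 1 library was left out were not called with all libraries. Combined, they ranged from -0.44 to 0.02 for Rpl3-ps1, -0.22 to 0.09 for Rps19-ps3 and -0.15 to 0.29 for Rps7-ps2. In females they ranged from -0.07 to 0.38 for Rps19-ps3 and -0.43 to 0.43 for Rps16-ps2. In males they ranged from -0.74 to 0.02 for Rps16-ps2 and -0.45 to 0.18 for Rpl14-ps1. For the interaction they ranged from -0.85 to 0.13 for Rps16-ps2 and -0.39 to 0.43 for Rps2-ps10. Against the parent they ranged from -0.32 to 0.06 for Rpl3-ps1, -0.10 to 0.24 for Rps16-ps2, -0.18 to 0.13 for Rps26-ps1 and -0.09 to 0.68 for Rps7-ps2. The named parent of Rps7-ps2 was not borne out by its sequence.

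Depth limits most members: 236 of 300 had under 12 counts in all. The usual filter on low counts left 291 to 295 of 300 untested, depending on the comparison. The split of reads between a member and its parent is uncertain where they share windows, and the label of morphine male 6 is in doubt.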
